A study of Mus musculus with 14 samples.

Results

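The Hox genes of the mouse were followed in whole colon, by cluster and by paralogue number, across 4 groups of mice that differed in genotype and treatment. Members were all genes whose symbol is Hoxa, Hoxb, Hoxc or Hoxd plus a number, with the symbol taken from the RefSeq accession that the array gives for each probe. Of 39 such genes in the gene table, 36 had a probe, out of 19096 named genes on the array, and these 36 genes had 46 probes. Hoxc4, Hoxc6 and Hoxc11 had no matched probe and were not analysed here. Each gene was read at the probe with its highest mean signal. The rule for members uses no measured difference between groups, although it was chosen with earlier results of these data known.

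Hox genes encode homeodomain transcription factors that lie in clusters, and their order along the chromosome follows the order in which they are expressed along the head-to-tail axis of the embryo. Low paralogue numbers are used toward the head and high numbers toward the tail, and adult gut keeps part of this code in both its epithelium and its mesenchyme, with the highest numbers in the hindgut. Hox proteins bind DNA together with Pbx and Meis family cofactors, retinoic acid switches on the 3′ genes of the clusters, caudal (Cdx) factors act on the central ones, and Polycomb and Trithorax proteins hold clusters silent or active.

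Colon RNA of 14 female C57BL/6 mice aged 4 to 6 months on chow was hybridised to 1-colour Agilent arrays, with 500 ng of RNA and 1 array for each mouse. Flox mice carry loxP-flanked alleles of Nr3c1, the gene of the glucocorticoid receptor (GR), and were the controls. GR iKO mice carry the same floxed alleles plus Villin-cre, a constitutive Cre of the intestinal epithelium, so stroma, muscle, nerve and immune cells keep the receptor. Each genotype drank regular water (n = 4) or, for 7 days, 2.5% dextran sulfate sodium (DSS), a polymer that damages the epithelium of the colon (n = 3). The comparisons asked how DSS colitis changed Hox transcripts and whether loss of epithelial GR altered that change.

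Levels are log2 processed intensities relative to the array's own 75th percentile, so that 0 is that percentile, and they are compared between arrays for 1 gene, never between genes. A gene was tested when its probe stood well above background on 3 or more of the 14 arrays, and called at an adjusted p under 0.05 from limma fitted over all probes. The 75th percentile ranged from 261.9 intensity units, in Flox DSS replicate 4, to 1003.0, and between 62.6% and 71.3% of an array's probes stood well above background. DSS arrays varied more than water arrays, with a median residual variance of 0.115 against 0.0348, and this spread touches every DSS value that follows. The most intense Nr3c1 probe in GR iKO mice was at 57.3% of the Flox level on water and 56.1% on DSS, without overlap between genotypes. Its position with respect to the loxP sites was not determined here. Whole colon holds many cell types, and fewer cells of a type and less RNA per cell cannot be told apart.

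Signal above background covered nearly all of the HoxA and HoxB genes measured in colon and 1 of the 6 HoxC genes (chromosome 15). Of the 36 genes, 23 were well above background on all 14 arrays, 26 were tested, and 9 were above background on no array. The HoxA genes (chromosome 6) from Hoxa2 to Hoxa13 were above background on every array. In HoxB (chromosome 11), 8 of 10 genes were above background on every array, whereas Hoxb1 was so on none and Hoxb8 on 1 array of GR iKO water. In HoxC, 0 of 6 genes were above background on every array. Hoxc5, Hoxc8, Hoxc10, Hoxc12 and Hoxc13 were above background on none, and Hoxc9 on exactly 3 arrays, which were the 3 Flox DSS arrays. In HoxD (chromosome 2), Hoxd4, Hoxd9, Hoxd10 and Hoxd13 were above background on all arrays, Hoxd8 on 11 and Hoxd11 on 7, and Hoxd1, Hoxd3 and Hoxd12 on none. Both anterior HoxD genes on the array, Hoxd1 and Hoxd3, thus stayed below background throughout.

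**Figure D1:**
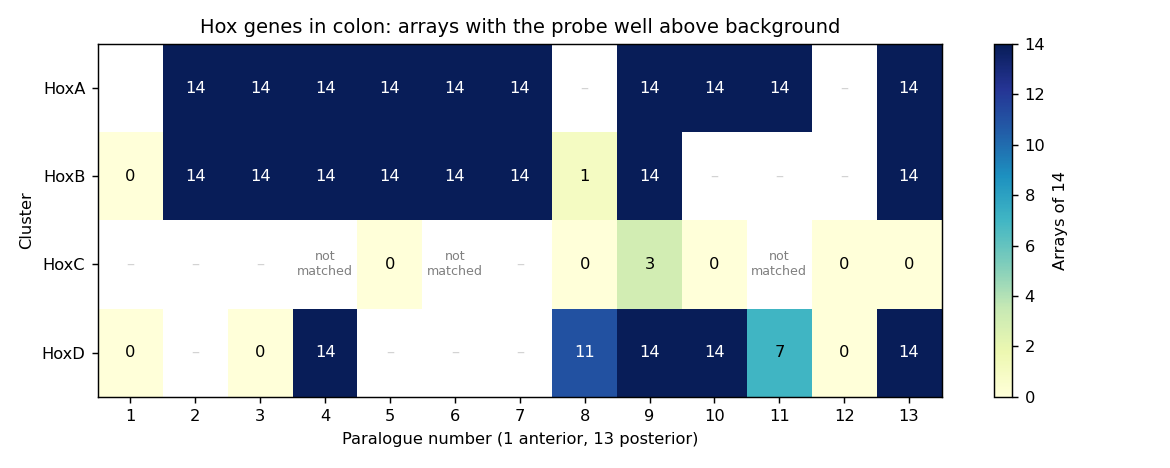
Number of arrays, out of 14, on which the probe of each Hox gene was well above background, by cluster (rows) and paralogue number (columns). A dash marks a position with no gene in the gene table, "not matched" marks a gene without a matched probe, and an empty cell is not reported here. Hoxa2 to Hoxa13 were above background on all 14 arrays, and HoxC held 1 gene above background on 3 arrays.

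DSS raised most central Hox genes and lowered Hoxa2, Hoxa3, Hoxb9 and Hoxb13. In Flox colons 17 of 26 tested Hox genes were called, 13 higher and 4 lower, or 16 of 25 without Hoxc9, which passed the filter only through Flox DSS. Among all 15533 genes tested, 54.3% were called, 27.4% higher and 26.9% lower, so the share of Hox genes called was near the background and the share of rises was above it, as counts and without a test of the list. The median log2 difference was 0.57 over the Hox genes and -0.03 over all genes. In GR iKO colons 13 of 26 were called, 9 higher and 4 lower, beside 47.1% of all genes, 24.5% higher and 22.6% lower, and the medians were 0.40 and 0.00. With arrays scaled to spike-in transcripts in place of the percentile, the split of calls was 1 higher and 17 lower in Flox. It was 0 higher and 9 lower in GR iKO, on a scale where the median probe also fell. On that scale 26562 of all 29523 probes were called in Flox and 16847 in GR iKO.

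By position, the 10 central genes tested (paralogues 4 to 8) gave 9 rises and 0 falls in Flox and 6 rises and 0 falls in GR iKO, with median log2 differences of 1.80 and 1.00. The 5 anterior genes tested (paralogues 1 to 3) gave 2 rises and 2 falls in each genotype. The 11 posterior genes tested (paralogues 9 to 13) gave 2 rises and 2 falls in Flox and 1 rise and 2 falls in GR iKO, with medians of 0.03 and 0.22. All 13 genes called in GR iKO were also called in Flox in the same direction, 9 higher and 4 lower. Of all 7317 genes called in GR iKO, 5715 were likewise called in Flox in the same direction, so most calls were shared in general. The 2 genotypes are separate mice, so these calls share no arrays, although all groups share 1 estimate of the spread. For each call with DSS, the arrays of both groups did not overlap. That fixes the direction on all 3 slides with arrays of both groups, so the slides add no support. How many of all called genes did not overlap is not given here.

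**Figure D2:**
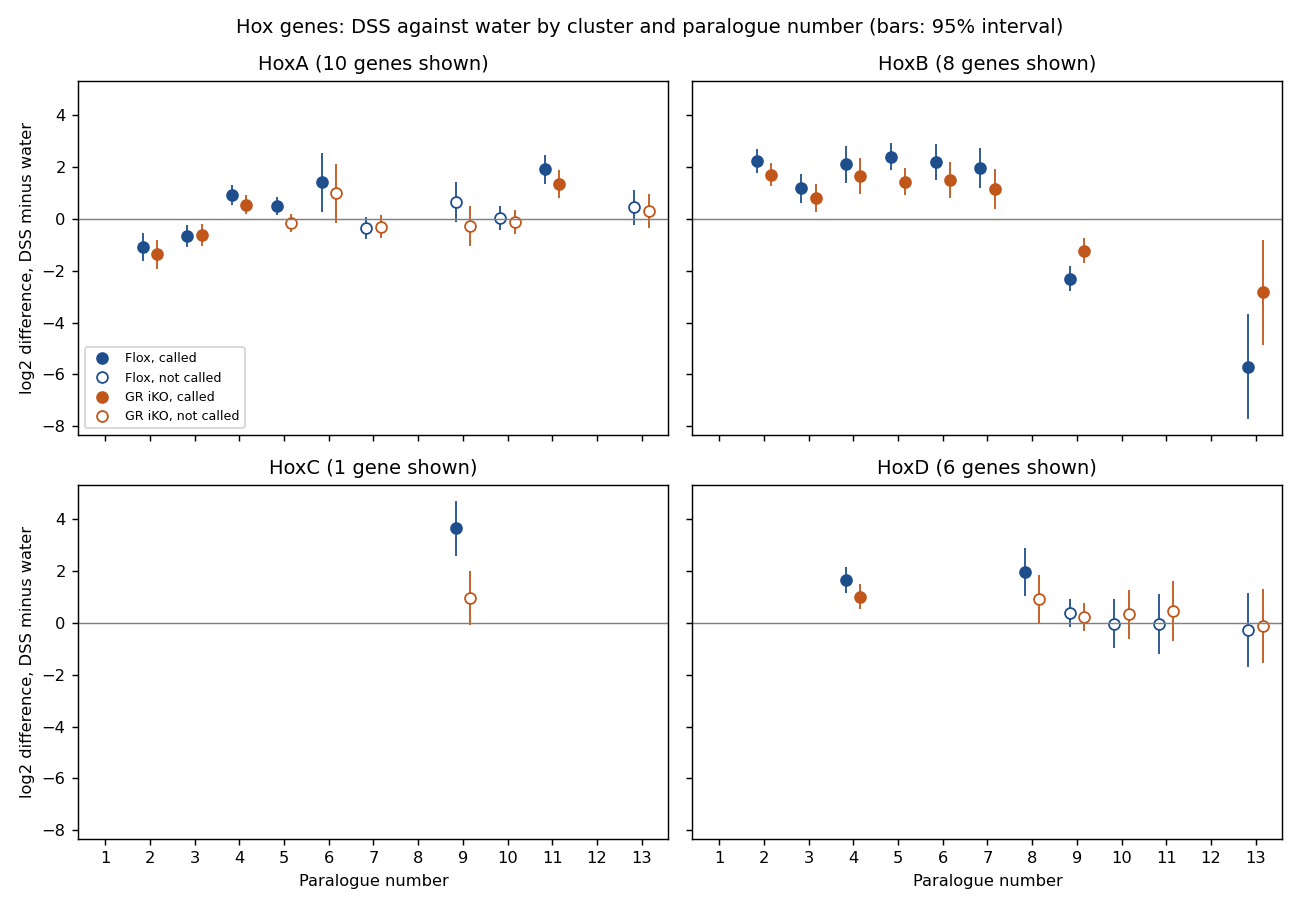
Log2 difference of DSS minus water, on levels scaled to each array's 75th percentile, for the tested Hox genes reported here by paralogue number, in 1 panel per cluster; blue is Flox, orange is GR iKO, bars are 95% intervals of the limma fit, and filled points are called. Hoxb2 to Hoxb7 lay above 0 and Hoxb9 and Hoxb13 below 0 in both genotypes; scaled to spike-in transcripts, the HoxB rises in Flox were at or below 0.

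Within HoxB, DSS split the cluster between Hoxb7 and Hoxb9. All 6 genes from Hoxb2 to Hoxb7 rose in both genotypes, and both tested genes beyond them, Hoxb9 and Hoxb13, fell in both, while Hoxb8, which lies between, was not tested. Hoxb5, which patterns the neck and vagal region and acts in the neural crest that forms the enteric nervous system, had log2 levels of -1.30, -1.11, -1.47 and -1.74 in Flox mice on water and 1.37, 1.23 and 0.39 on DSS. In GR iKO mice its levels were -1.15, -1.84, -1.47 and -1.55 on water and -0.22, 0.10 and -0.05 on DSS. All DSS arrays were above all water arrays, and the GR iKO DSS arrays were below the Flox DSS arrays. The log2 difference was 2.40 ± 0.24 (SE) in Flox, a 5.28-fold rise (adjusted p = 8.79e-06), and 1.44 ± 0.24 in GR iKO, a 2.72-fold rise (adjusted p = 0.000475).

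Hoxb2, a hindbrain patterning gene near the 3′ end of the cluster, was at -1.19, -1.20, -1.26 and -1.57 in Flox on water and at 1.04, 1.27 and 0.47 on DSS. Its GR iKO levels were -0.91, -1.43, -1.34 and -1.53 on water and 0.64, 0.49 and 0.11 on DSS. The groups did not overlap in either genotype, and the rises were 2.23 ± 0.21 log2 units in Flox (adjusted p = 6.47e-06) and 1.71 ± 0.21 in the GR iKO mice (adjusted p = 6.42e-05). Hoxb4, known for expanding blood stem cells in culture, was at -4.60, -4.51, -4.26 and -4.36 in Flox on water and at -2.26, -2.05 and -2.70 on DSS. Its GR iKO levels were -4.22, -3.45, -5.28 and -4.43 on water and -2.92, -2.68 and -2.46 on DSS. Its rises were 2.10 ± 0.32 log2 units (adjusted p = 0.000208) and 1.66 ± 0.32 (adjusted p = 0.00143).

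Hoxb6, a gene of the trunk and lateral plate mesoderm, was at -1.36, -0.79, -1.47 and -1.74 in Flox on water and at 1.23, 1.30 and 0.04 on DSS. GR iKO arrays were at -1.03, -1.80, -1.63 and -1.59 on water and at -0.35, -0.06 and 0.38 on DSS. It rose by 2.19 ± 0.32 log2 units in Flox (adjusted p = 0.000151) and by 1.50 ± 0.32 in GR iKO (adjusted p = 0.00267). Hoxb3 rose by 1.18 ± 0.25 and 0.80 ± 0.25 and Hoxb7 by 1.96 ± 0.35 and 1.14 ± 0.35 log2 units. The second Hoxb3 probe rose more, by 2.20 in Flox and 1.56 in GR iKO. The GR iKO call of Hoxb3 was lost without GR iKO water replicate 2 (log2 difference 0.66, adjusted p = 0.0621) or GR iKO DSS replicate 3 (0.66, adjusted p = 0.0837), and that of Hoxb7 without GR iKO DSS replicate 4 (0.82, adjusted p = 0.0941).

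These rises are relative to the rest of each array's RNA. When arrays were scaled to 8 spike-in probes instead, the median of all probes itself moved by -2.49 log2 units with DSS in Flox and by -0.96 in GR iKO. On that scale the 6 HoxB rises lay between -1.22 and 0.00 in Flox and between -0.14 and 0.78 in GR iKO. Relative to the median probe they were 1.27 to 2.49 and 0.82 to 1.74. Either scaling shifts all probes of an array by the same amount. Values relative to the median probe therefore repeat the percentile-scaled differences, less their own median. Each of the 17 Flox and 13 GR iKO calls kept its sign in this way, which was fixed and is no further support.

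Hoxb13, the last gene of the cluster, is known for its expression in the distal colon, rectum and prostate. In Flox its levels were 4.42, 4.25, 4.64 and 4.81 on water and -2.14, -3.07 and 1.71 on DSS. In GR iKO they were 3.90, 4.26, 4.50 and 4.89 on water and 2.36, 2.46 and -0.16 on DSS. Every DSS array was below every water array, and the DSS arrays were far apart, with Flox DSS replicate 4 nearest to the water arrays of its genotype and GR iKO DSS replicate 4 farthest from those of its own. The differences were -5.70 ± 0.93 log2 units in Flox, a 51.9-fold fall (adjusted p = 0.000295), and -2.83 ± 0.93 in GR iKO, a 7.13-fold fall (adjusted p = 0.0256). The Flox difference was -7.14 without Flox DSS replicate 4 and -4.75 without Flox DSS replicate 2. The GR iKO call was lost without GR iKO DSS replicate 4 (-1.98, adjusted p = 0.122), GR iKO water replicate 3 (-2.80, adjusted p = 0.0513) or GR iKO water replicate 4 (-2.67, adjusted p = 0.0593).

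Hoxb9, a gene of the thoracic and more caudal trunk, was at 1.59, 2.11, 1.91 and 1.73 in Flox on water and at -0.81, -0.48 and -0.15 on DSS. In GR iKO it was at 1.80, 1.68, 1.99 and 1.90 on water and at 0.99, 0.04 and 0.83 on DSS. Water levels of both genotypes were alike in range, DSS levels were lower without overlap, and the Flox DSS arrays were lowest. Hoxb9 fell by 2.31 log2 units in Flox (SE 0.22, adjusted p = 7.68e-06) and by 1.23 in GR iKO (SE 0.22, adjusted p = 0.000948). Its second probe changed less, by -0.84 in Flox (adjusted p = 0.00988) and by -0.49 in GR iKO (adjusted p = 0.113).

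**Figure D3:**
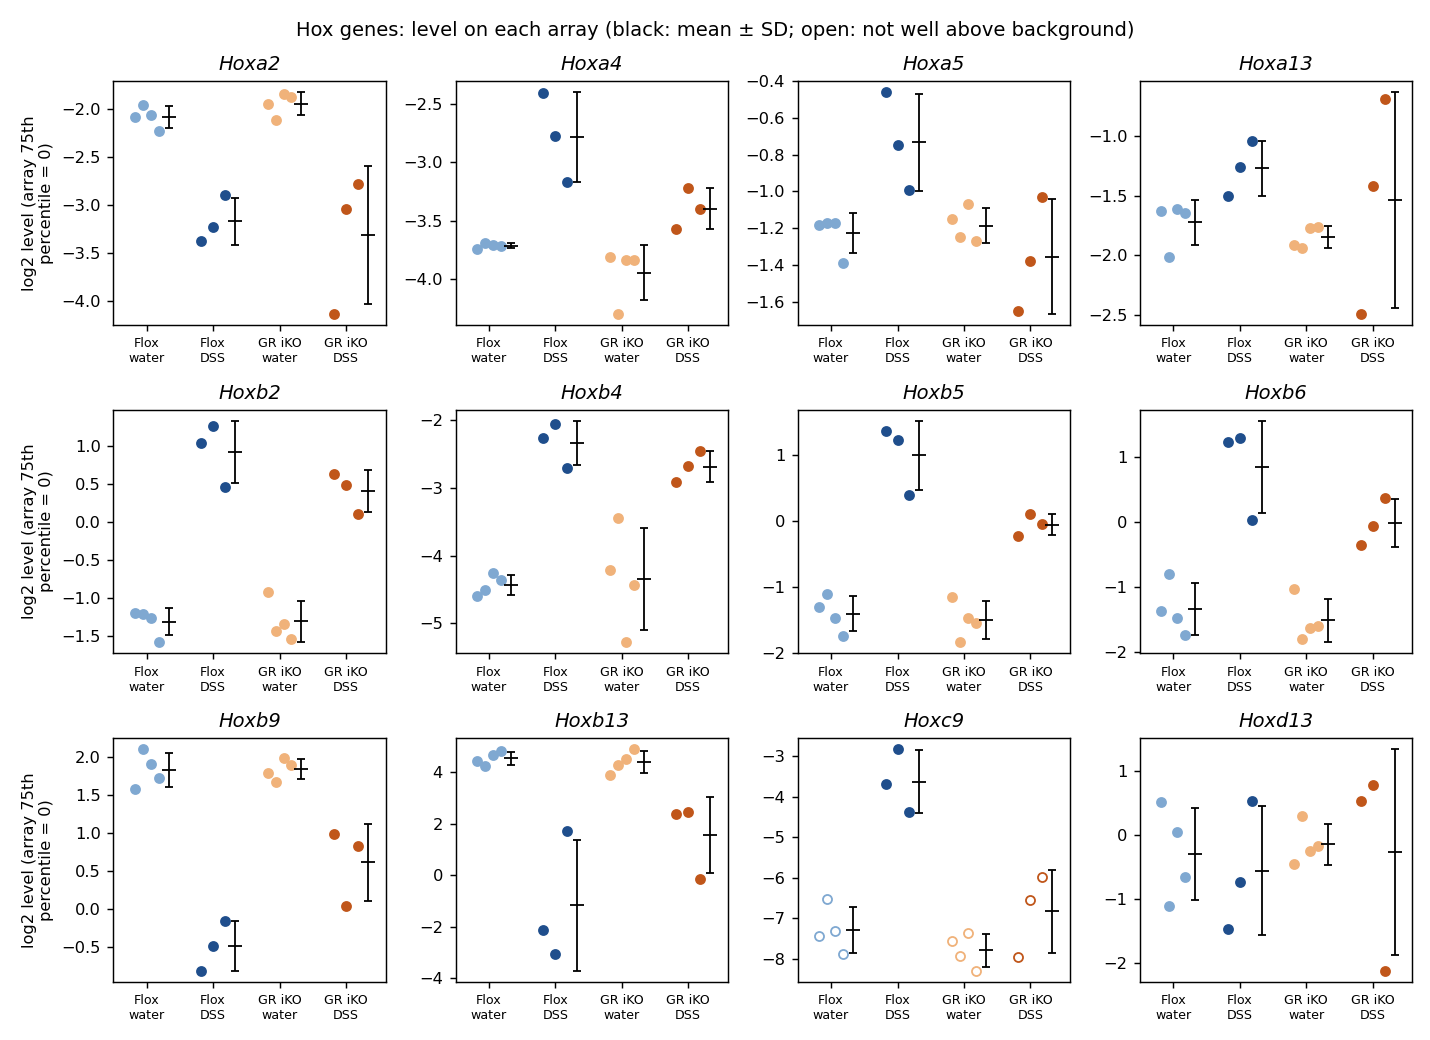
Log2 level on each array, relative to the array's 75th percentile, of 12 Hox genes named in the text, with arrays in order of replicate number within a group and the mean ± SD in black. Open points are not well above background. Hoxb2, Hoxb4, Hoxb5 and Hoxb6 were higher and Hoxb9 and Hoxb13 lower on every DSS array than on any water array of the same genotype, and Hoxc9 was above background on the 3 Flox DSS arrays.

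Ratios of 2 probes on the same array do not depend on the scaling between arrays, and they give the size of the unequal change within HoxB. Hoxb5 and Hoxb7 rose and Hoxb9 fell without overlap in each genotype. Their ratios were therefore bound to separate DSS from water arrays, and that separation is no further support. The log2 ratio of Hoxb5 over Hoxb9 was -3.24 ± 0.25 (SD, n = 4) in Flox on water and 1.47 ± 0.85 (n = 3) on DSS, a change of 4.71. In GR iKO it was -3.34 ± 0.26 and -0.67 ± 0.66, a change of 2.67. Hoxb7 over Hoxb9, the pair on either side of the split, changed by 4.27 in Flox, from between -4.10 and -3.48 to between -0.76 and 1.04, and by 2.37 in GR iKO, from between -4.15 and -3.69 to between -2.39 and -1.11. The DSS and water arrays did not overlap in these ratios, which the choice of pairs fixed. The second Hoxb9 probe was an alternative chosen after seeing the data. With it the changes in Flox and GR iKO were smaller, 3.24 and 1.93 for Hoxb5 over Hoxb9 and 2.80 and 1.63 for Hoxb7 over Hoxb9. DSS and water arrays again did not overlap, but the genotypes overlapped on DSS. Hoxb5 over that probe was 0.94 to 2.26 on Flox DSS and -0.36 to 1.0 on GR iKO DSS. Hoxb7 over it was -0.35 to 1.21 and -0.83 to -0.22. Hoxb9 over Hoxb13, the pair that both fell, changed by 3.39 in Flox and 1.61 in GR iKO, but its DSS arrays were spread from -1.85 to 2.59 and from -2.42 to 0.98 and overlapped the water range in GR iKO.

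**Figure D4:**
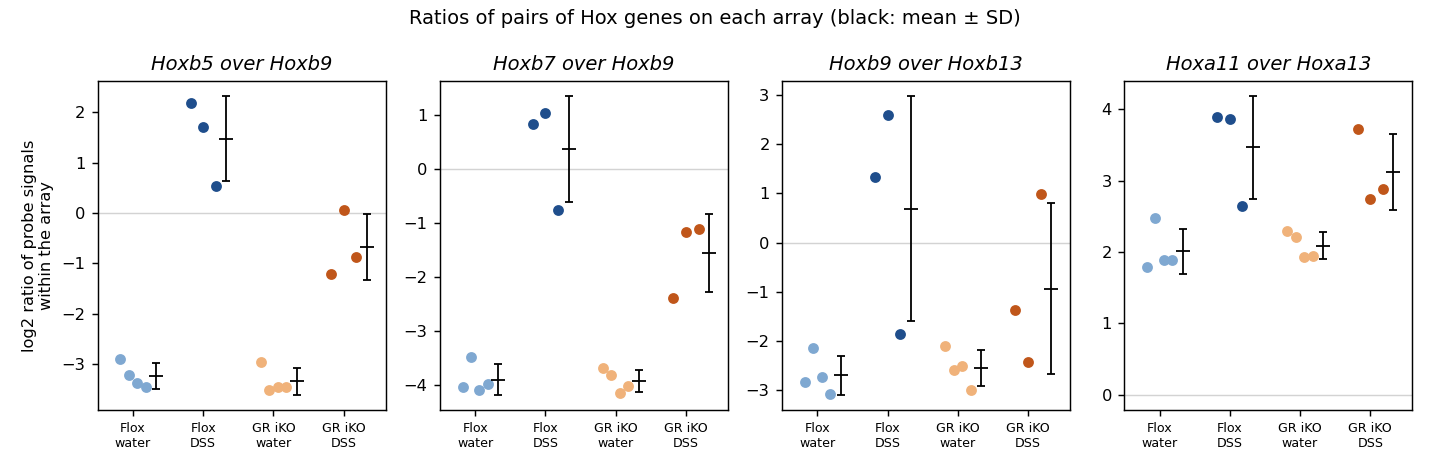
Log2 ratio of the probe signals of 2 Hox genes on the same array, in 4 pairs, with arrays in order of replicate number and the mean ± SD in black. Hoxb5 and Hoxb7 over Hoxb9 were higher on every DSS array than on any water array, which the choice of pairs fixed within each genotype. In both ratios the GR iKO DSS arrays were lower than the Flox DSS arrays, which for Hoxb5 over Hoxb9 the choice of pair also fixed. With the second Hoxb9 probe, not shown, the genotypes overlapped on DSS in both ratios. A ratio of 0 between different probes carries no meaning of its own.

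HoxA changed less and in a less ordered way than HoxB, although no test compared the clusters. In Flox, 4 of its 11 genes rose and 2 fell, and in GR iKO, 2 rose and 2 fell. Hoxa2, which specifies the second pharyngeal arch, was at -2.09, -1.96, -2.07 and -2.23 in Flox on water and at -3.38, -3.23 and -2.90 on DSS. GR iKO levels were -1.95, -2.12, -1.85 and -1.88 on water and -4.13, -3.04 and -2.78 on DSS. All DSS arrays were lower than all water arrays, and the differences were -1.09 ± 0.25 (adjusted p = 0.00336) and -1.37 ± 0.25 (adjusted p = 0.000994). With normexp background correction the Flox difference was -0.38 and not called (adjusted p = 0.108). Hoxa3 fell by 0.65 and 0.61 log2 units, and its second probe fell by 1.47 and 1.06. The Hoxa3 calls rested on single arrays: Flox was lost without Flox DSS replicate 2 (-0.43, adjusted p = 0.0863), and GR iKO without GR iKO DSS replicate 1 (-0.48, adjusted p = 0.0938) or GR iKO water replicate 4 (-0.50, adjusted p = 0.0695).

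Of the central HoxA genes, Hoxa4 was at -3.74, -3.69, -3.71 and -3.72 in Flox on water and at -2.40, -2.77 and -3.17 on DSS. In GR iKO it was at -3.81, -4.30, -3.84 and -3.84 on water and at -3.57, -3.22 and -3.40 on DSS. It rose by 0.94 ± 0.18 log2 units in Flox (adjusted p = 0.000808) and by 0.55 ± 0.18 in GR iKO (adjusted p = 0.0222). The second Hoxa4 probe, above background on 6 arrays, rose by 1.05 in Flox (adjusted p = 0.0179) and differed by 0.08 in GR iKO (adjusted p = 0.856). The GR iKO call was lost without GR iKO water replicate 2 (0.44, adjusted p = 0.0629), GR iKO DSS replicate 3 (0.47, adjusted p = 0.0775) or GR iKO DSS replicate 4 (0.56, adjusted p = 0.0501).

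Hoxa5, which patterns the lung and the gut mesenchyme, was at -1.18, -1.17, -1.17 and -1.39 in Flox on water and at -0.46, -0.75 and -0.99 on DSS. In GR iKO it was at -1.15, -1.25, -1.07 and -1.27 on water and at -1.65, -1.38 and -1.03 on DSS, so the GR iKO groups overlapped while the Flox groups did not. The difference was 0.49 ± 0.16 in Flox (adjusted p = 0.0188) and -0.17 ± 0.16 for GR iKO (adjusted p = 0.417). The Flox call was lost without Flox DSS replicate 1 (0.36, adjusted p = 0.0996) or Flox water replicate 4 (0.44, adjusted p = 0.0516). Hoxa6 differed by 1.42 ± 0.52 in Flox (adjusted p = 0.0372), a call that was lost without any 1 of 6 Flox arrays (1.19 to 1.55, adjusted p = 0.0539 to 0.107), which were water replicates 2, 3 and 4 and DSS replicates 1, 2 and 4. In GR iKO its difference was 0.99 ± 0.52.

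Posterior HoxA genes were called in 1 of 4 cases. Hoxa11, which patterns the forearm, uterus and kidney, was at 0.16, 0.47, 0.28 and 0.25 in Flox on water and at 2.40, 2.61 and 1.60 on DSS, and in GR iKO at 0.38, 0.28, 0.16 and 0.18 on water and at 1.24, 1.32 and 2.20 on DSS. It rose by 1.91 ± 0.25 log2 units in Flox (adjusted p = 6.63e-05) and by 1.34 ± 0.25 in GR iKO (adjusted p = 0.00115). Hoxa13, a gene of the hindgut, genital tubercle and digits, was at -1.63, -2.01, -1.61 and -1.64 in Flox on water, at -1.50, -1.26 and -1.04 on DSS, at -1.91, -1.94, -1.77 and -1.76 in GR iKO on water and at -2.49, -1.42 and -0.69 on DSS. Its differences of 0.46 ± 0.31 and 0.31 ± 0.31 did not pass the test (adjusted p = 0.234 and 0.440). Its 2 probes disagreed: the other Hoxa13 probe fell by 1.00 log2 units in Flox (SE 0.19, adjusted p = 0.00101) and by 0.77 in GR iKO (SE 0.19, adjusted p = 0.00676), so no direction is given for Hoxa13. Hoxa7, Hoxa9 and Hoxa10 were not called in either genotype, with log2 differences between -0.34 and 0.65.

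In HoxD, 2 of 6 tested genes rose in Flox and 1 rose in GR iKO, and none fell. Hoxd4, expressed in hindbrain and neck, was at -2.80, -2.85, -2.79 and -2.53 in Flox on water and at -0.69, -0.79 and -1.77 on DSS, and in GR iKO at -2.37, -2.77, -2.65 and -2.91 on water and at -1.74, -1.54 and -1.72 on DSS. DSS arrays were higher throughout, by 1.66 ± 0.23 log2 units in Flox (adjusted p = 8.19e-05) and 1.01 ± 0.23 for GR iKO (adjusted p = 0.00322). Hoxd8 rose by 1.95 ± 0.43 in Flox (adjusted p = 0.00227), where it was above background on 2 of 4 water and 2 of 3 DSS arrays, and differed by 0.91 ± 0.43 in GR iKO (adjusted p = 0.104). Hoxd9, Hoxd10, Hoxd11 and Hoxd13 were not called in either genotype, although the second Hoxd9 probe rose by 1.54 in Flox (adjusted p = 0.0075).

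Hoxd13, a gene of the digits and of the anal sphincter, ranged widely within groups. It was at 0.51, -1.11, 0.04 and -0.66 in Flox on water and at -1.47, -0.74 and 0.52 on DSS. In GR iKO it was at -0.46, 0.30, -0.26 and -0.18 on water and at 0.53, 0.78 and -2.12 on DSS. Its differences of -0.26 ± 0.66 and -0.12 ± 0.66 log2 units had 95% intervals of -1.70 to 1.17 and -1.55 to 1.32, which include changes of over 2-fold in either direction.

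Hoxc9, another gene of the thoracic trunk, was the 1 HoxC gene tested. It passed the filter only through Flox DSS, the group where it was high, and so was bound to differ from the other groups. Its levels were -3.68, -2.83 and -4.38 on Flox DSS arrays. The other arrays were not well above background and had measured values of -7.88 to -6.52 in Flox water, -8.29 to -7.36 in GR iKO water and -7.96, -6.54 and -5.98 in GR iKO DSS. Against the lowest signal that counts as above background on each array, Flox DSS was at least 5.2-fold higher than Flox water and at least 4.68-fold higher than GR iKO DSS. These folds describe the arrays and carry no test. Hoxc13, the HoxC member of the last paralogue group, was not well above background on any array, with measured values between -8.55 and -6.82.

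RefSeq promoters were at hand for 22 Hox genes (24 promoters, build GRCm38.p6). The 250 bases before the start site are shown for 3 genes that moved and that have such an entry: Hoxb4 and Hoxd4, which rose in both genotypes, and Hoxa2, which fell in both. Capitals mark 6 or 8 letters that match, on either strand, TTTATG, the core read by caudal factors, TAATTA, a general homeodomain core, or TGATTGAT, a composite site of Hox with Pbx.
Hoxb4, chr11:96318017-96318266, plus strand: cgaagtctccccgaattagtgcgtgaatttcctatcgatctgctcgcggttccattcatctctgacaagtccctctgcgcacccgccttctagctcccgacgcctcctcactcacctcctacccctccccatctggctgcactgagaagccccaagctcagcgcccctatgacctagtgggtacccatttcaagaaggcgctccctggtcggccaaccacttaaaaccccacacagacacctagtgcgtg
Hoxd4, chr2:74721728-74721977, plus strand: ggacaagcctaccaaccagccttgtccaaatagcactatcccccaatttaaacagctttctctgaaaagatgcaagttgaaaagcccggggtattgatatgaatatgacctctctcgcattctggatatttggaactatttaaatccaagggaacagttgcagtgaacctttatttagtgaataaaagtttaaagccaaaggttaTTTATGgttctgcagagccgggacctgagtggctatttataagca
Hoxa2, chr6:52164832-52165081, minus strand: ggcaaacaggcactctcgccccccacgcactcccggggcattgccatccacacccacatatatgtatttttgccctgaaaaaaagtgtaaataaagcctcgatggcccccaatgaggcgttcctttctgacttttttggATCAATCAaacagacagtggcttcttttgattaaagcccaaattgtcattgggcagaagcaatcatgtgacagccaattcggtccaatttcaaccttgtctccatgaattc
Hoxd4 held 1 match to TTTATG and Hoxa2 1 match to TGATTGAT, and Hoxb4 held none of the 3. TTTATG was in 5 of 24 Hox promoters (20.8%), those of Hoxa7, Hoxb8, Hoxd3, Hoxd4 and Hoxd11, and in 10.8% of all 32851 promoters. TAATTA was in 2 (8.33%), both of Hoxd11, against 4.84%, and TGATTGAT in 2 (8.33%), of Hoxa2 and Hoxd11, against 0.67%. Of the genes with TTTATG, Hoxd4 rose and Hoxa7 and Hoxd11 were not called. The Hox promoters were rich in G and C, with a median of 58.6% and 12.5 CG pairs in 250 bases, against 52.4% and 6.0 over all promoters. A match here is a run of letters and not a bound site.

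On water, no Hox difference between genotypes passed the test. None of the 26 genes was called between GR iKO and Flox by limma, 0 had an unadjusted p under 0.05, and the lowest unadjusted p was 0.174. Of all genes, 0.00644% were called. Log2 differences, GR iKO minus Flox, ranged from -0.50, for Hoxc9, which is below background on all water arrays, to 0.20, and the count was 0 under each of the other settings. For Hoxb13 the 95% interval of the difference was -2.01 to 1.72, for Hoxb9 -0.44 to 0.46 and for Hoxb5 -0.58 to 0.38, so the data leave room for differences of that size.

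On DSS, 5 Hox genes were called between genotypes, beside 14.8% of all genes. Without Hoxc9, whose difference the filter fixed, the count was 4 of 25, or 16.0%, near that background. Hoxa4 (log2 difference -0.62 ± 0.19, adjusted p = 0.0494), Hoxa5 (-0.62 ± 0.17, adjusted p = 0.0333), and Hoxb5 (-1.05 ± 0.26, adjusted p = 0.022) were lower in GR iKO relative to the 75th percentile, whereas scaled to spike-ins they were higher, by 0.65, 0.65 and 0.22. On the spike-in scale 13 Hox genes were called, 12 higher and 1 lower, beside 22640 of all 29523 probes. The median probe was itself higher by 1.30. Hoxb9 was higher in GR iKO, by 1.10 ± 0.24 (adjusted p = 0.0156), but its second probe differed by 0.31 (adjusted p = 0.453). The second Hoxa4 probe differed by -0.90 (adjusted p = 0.112). The arrays of both genotypes did not overlap for these 5 genes, so the direction within a slide was fixed and adds no support. Slides 1 and 4 held both DSS groups. Their differences were -1.27 and -0.44 for Hoxb5 and 0.85 and 0.97 for Hoxb9. For Hoxa4 they were -0.82 and -0.23, and for Hoxa5 -0.91 and -0.04. With the slide as a block, Hoxa4 (-0.65, adjusted p = 0.0798) and Hoxa5 (-0.60, adjusted p = 0.0913) were no longer called, nor were they with the replicate block (-0.69 and -0.64, adjusted p = 0.0691 and 0.0778). For 12 of the 13 genes called with DSS in both genotypes (92.3%) the change was smaller in GR iKO, Hoxa2 being the exception, beside 60.5% of the 5715 genes called alike in both. On the spike-in scale the order of the HoxB rises was the other way, for example -0.17 in Flox and 0.78 in GR iKO for Hoxb2. Hoxb13 was higher in GR iKO by 2.72 ± 0.99 but not called (adjusted p = 0.0884), and the difference was 4.60 on slide 1 and -1.86 on slide 4.

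These genotype calls also depend on how the spread is estimated. When DSS arrays were given their own, larger variance, none of the 26 Hox genes and 0.0258% of all genes were called, and 7 Hox genes had an unadjusted p under 0.05. The count of 5 became 13 without Flox DSS replicate 4 and 9 without GR iKO DSS replicate 4. It became 1, Hoxc9, without Flox DSS replicate 1, Flox DSS replicate 2 or GR iKO DSS replicate 1. Over all 29523 probes, calls went from 3903 to 5934 and 3424, and to 1909, 1077 and 2170 without these last 3 arrays in turn. Without 1 of these last 3 arrays adjusted p was 0.0639 to 0.0856 for Hoxb5, 0.0505 to 0.0548 for Hoxb9 and 0.091 to 0.119 for Hoxa5, and Hoxa4 was lost without any 1 of 11 arrays (0.0625 to 0.174). The differences in those fits were -0.97 to -0.87 for Hoxb5, 0.91 to 1.09 for Hoxb9, -0.62 to -0.47 for Hoxa5 and -0.62 to -0.42 for Hoxa4.

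No Hox gene was called for the genotype by DSS interaction, the difference between the DSS responses of GR iKO and Flox, beside 0.103% of all genes. At an unadjusted p under 0.05 there were 5, one of them Hoxc9, and the lowest adjusted p of the others was 0.107, for Hoxb9. Interaction estimates were 1.09 ± 0.32 for Hoxb9, whose second probe gave 0.35 ± 0.33, -0.95 ± 0.34 for Hoxb5, -0.66 ± 0.22 for Hoxa5 and 2.86 ± 1.31 for Hoxb13. Without Flox DSS replicate 4, the array with the lowest signal, 6 were called: Hoxb9 and Hoxb13 with a positive estimate, and Hoxb5, Hoxc9, Hoxd4 and Hoxd8 with a negative one. Without GR iKO DSS replicate 3 there were 2, Hoxb9 and Hoxc9, and without GR iKO DSS replicate 4 there was 1, Hoxa9. Over all 29523 probes, interaction calls went from 33 to 2221, 2057 and 324 in these fits, in the same order.

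Genes that work with or act on Hox genes moved in several directions, on levels relative to the 75th percentile, which were not rescaled to spike-ins for these lists. The counts that follow stand beside the 54.3% of all genes called in Flox (27.4% higher, 26.9% lower) and 47.1% in GR iKO (24.5% and 22.6%), and no list was tested as a list. Of 9 tested Hox cofactors, 6 rose and 1 fell in Flox (median log2 difference 0.60), and 4 rose and 1 fell in GR iKO (0.32). Meis2 rose by 2.41 and 1.46 log2 units and Meis1 by 1.94 and 1.07. Pbx3 rose by 1.64 and 0.62. Pknox1, named after its values were seen because it was the 1 cofactor to fall, fell by 0.25 and 0.34. On DSS, Meis1, Meis2 and Pbx3 were lower in GR iKO than in Flox, by 0.74, 0.84 and 0.93 log2 units (adjusted p = 0.0324, 0.00853 and 0.021). Of all genes, 14.8% were called between genotypes on DSS in this fit, and 0.0258% when DSS arrays had their own variance. Which calls of these lists remained then is not given here.

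Of the 4 caudal and ParaHox factors tested, 2 fell in Flox and 1 in GR iKO (medians -1.17 and -0.18). Cdx1, a caudal factor of the gut epithelium, fell by 2.60 log2 units in Flox and by 1.59 in GR iKO. Cdx2, its partner in setting intestinal identity, differed by 0.23 in Flox and -0.15 in GR iKO and was not called (adjusted p = 0.646 and 0.785). Pdx1, a factor of duodenum and pancreas, was called lower in Flox, where it was above background on 4 of 4 water arrays and 1 of 3 DSS arrays, so that the size of the fall was not measured, and Cdx4 and Gsx2 were not tested.

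Of 7 tested transcripts in or beside the clusters, 2 rose and 2 fell in Flox and 3 rose and 2 fell in GR iKO (medians -0.17 and 0.09). Hottip, a long noncoding RNA at the 5′ end of HoxA beside Hoxa13, was called lower in both genotypes, with all water arrays above background and 1 of 3 Flox and 2 of 3 GR iKO DSS arrays, so the size of its fall was not measured. Evx2, the homeobox gene that borders HoxD beyond Hoxd13, rose by 1.78 and 1.14, and Skap1, beside HoxB, by 1.14 and 0.83. The retinoic acid list of enzymes, binding proteins and receptors gave 6 rises and 0 falls of 11 in each genotype (medians 1.19 and 0.92), a share of calls near that of all genes: Aldh1a3 and Aldh1a2, which make retinoic acid, rose by 3.43 and 3.09 in Flox and by 4.39 and 2.08 in GR iKO, and Crabp1, a retinoic acid binding protein above background on water on 2 of 4 arrays in Flox and 3 of 4 in GR iKO, by 2.68 and 1.40. Rdh10, which makes the retinal that these enzymes use, differed by 0.42 in Flox without being called (adjusted p = 0.204) and rose by 1.60 in GR iKO.

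Of 19 Polycomb and Trithorax regulators, 3 rose and 6 fell in each genotype (medians -0.21 and -0.17), again a share of calls near or under that of all genes. Cbx2, a chromobox subunit of Polycomb, fell by 1.74 and 1.66 and Ezh2, the methyltransferase of Polycomb, by 0.97 and 0.73. Of 18 hindgut and gut mesenchyme patterning factors, 6 rose and 8 fell in Flox and 7 rose and 5 fell in GR iKO (medians -0.50 and -0.32). Six2, a mesenchymal homeobox gene, was called higher in both, with 1 of 4 water and 3 of 3 DSS arrays above background in Flox and 0 of 4 and 2 of 3 in GR iKO, and its rise in GR iKO was at least 1.86-fold. Foxf1, a factor of gut mesenchyme, rose by 2.23 and 1.87, and Foxa2, a factor of gut endoderm, fell by 2.32 and 2.30.

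**Figure D5:**
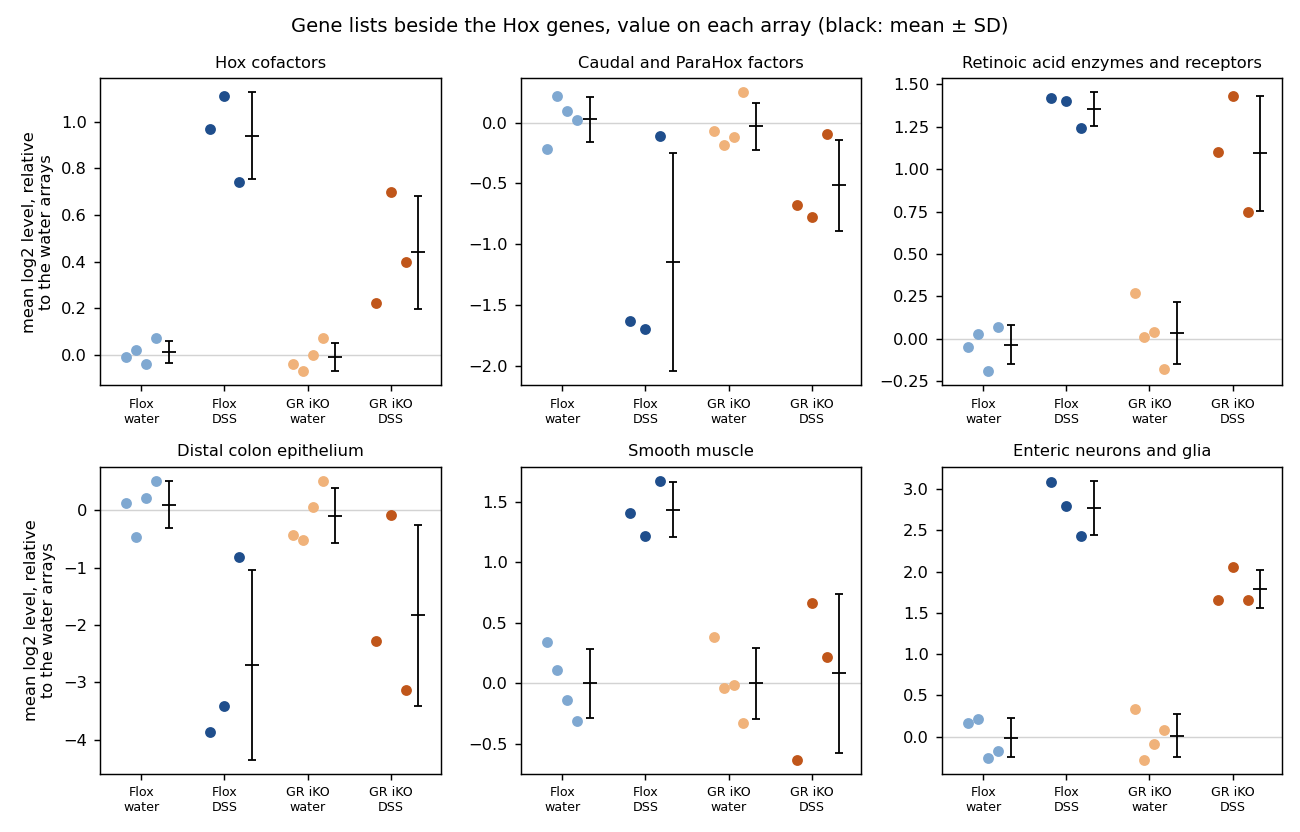
Mean log2 level of 6 gene lists on each array, relative to the water arrays, with arrays in order of replicate number and the mean ± SD in black. Hox cofactors lay at 0.74 to 1.11 on Flox DSS and 0.22 to 0.70 on GR iKO DSS. Enteric neuron and glia markers lay at 2.43 to 3.08 and 1.66 to 2.06. The distal colon epithelium list was spread over -3.87 to -0.81 and -3.14 to -0.08, and some of its genes were not well above background on some DSS arrays.

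Markers of several cell types moved with DSS at the same time as the Hox genes, and their part in the Hox results was not tested. Enteric neuron and glia markers rose in 9 of 9 tested genes in both genotypes (medians 2.42 and 1.53; Ret was above background on no array), and 6 of them were lower in GR iKO than in Flox on DSS. Fibroblast and matrix markers rose in 9 of 10 in both genotypes (1.29 and 0.98). Smooth muscle markers rose in 9 of 10 in Flox and in 1 of 10 in GR iKO (1.32 and 0.12), with list values of 1.22 to 1.67 on Flox DSS arrays and -0.63 to 0.66 on GR iKO DSS arrays, and all 10 were lower in GR iKO on DSS. The median log2 difference of that list between genotypes on DSS was -1.34.

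Of 12 epithelial markers, 1 rose and 6 fell in Flox and 1 rose and 2 fell in GR iKO (medians -0.45 and 0.09). Of 6 distal colon epithelium markers, 4 fell in Flox and 3 in GR iKO (-1.72 and -1.24). Aqp8 and Car4 were not called in Flox (adjusted p = 0.187 and 0.108). Fxyd4 differed most, by -8.00 and -5.62, but was above background on 2 of 3 DSS arrays in each genotype. Scnn1g was so on 1 of 3 in Flox and 2 of 3 in GR iKO, and Scnn1b on 2 of 3 in Flox. The size of the fall of the list was therefore not fully measured. Array by array, this list was at -3.87, -3.42 and -0.81 on Flox DSS replicates 1, 2 and 4, where Hoxb13 was at -2.14, -3.07 and 1.71. On GR iKO DSS replicates 1, 3 and 4 the list was at -2.28, -0.08 and -3.14 and Hoxb13 at 2.36, 2.46 and -0.16. In each genotype the array with the highest list value was also the one with the highest Hoxb13. Which stretch of colon each RNA sample held is not given in the sources used here.

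Among other cell types, myeloid markers rose in 6 of 8 in Flox and 7 of 8 in GR iKO (1.78 and 2.40), and lymphocyte markers fell in 3 of 8 and 1 of 8 (-0.89 and 0.19). Endothelial markers rose in 3 of 6 and 1 of 6 (0.66 and 0.43). Skeletal muscle markers rose in 3 and fell in 1 of 6 in Flox and rose in 1 and fell in 1 in GR iKO (0.54 and -0.03). Squamous epithelium markers of the anal canal and skin, of which 6 of 12 were tested, rose in 1 and fell in 3 in Flox and rose in 1 and fell in 2 in GR iKO (-0.35 and 0.32), with list values within -0.38 to 0.23 on all arrays. Krt4, Dsg3 and Sprr3 of that list were above background on no array.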

How the data were processed

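Members and gene lists were chosen with earlier results of these data known. The authors extracted spot intensity with Agilent Feature Extraction 12.0.0.7 per the file headers, and the deposited processed intensity is background-subtracted, on a linear scale and not scaled between arrays. The submitters' processing notes name Partek 6.6. The deposited value table holds log2 values of the same arrays whose normalization is not given in the sources used here, and its lowest correlation with log2 processed intensity was 0.999.

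Of 45018 spots per array, 1639 control spots were left out, non-uniform and outlier spots were set to missing, and spots of a probe were averaged to 41174 probes. Levels were log2 processed intensity minus the array's 75th percentile. The 29523 probes well above background on at least 3 of 14 arrays were fitted over 4 groups with limma 3.58.1 (lmFit, eBayes) in R 4.3.3 and adjusted by Benjamini-Hochberg at 0.05 over all probes, after a check on simulated data. Gene counts take 1 probe per gene, that of highest mean signal. The number of arrays limits the precision. Symbols came from 28223 accessions matched to the RefSeq gene table of GRCm38.p6. The array was designed on mm9, so no probe coordinates are given, and the promoter coordinates above are those of GRCm38.p6. No probe was saturated.

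Groups and replicate numbers came from the sample labels, and each slide held 3 or 4 arrays. Values on every array were to be given for the Hox genes with the 3 largest rises and falls called in each genotype, those called between genotypes and those of paralogue group 13. Hoxa11 and Hoxd4 were added after their values were seen. From each list, at most 3 called genes of largest change per comparison were named, plus Cdx1, Cdx2, Meis1, Meis2 and Pbx3. Some genes that enter the counts are not reported here by name. Alternatives were quantile normalization, scaling to 8 spike-in probes, normexp (offset 50, on the median signal, since the mean signal was not used here), the deposited table, other filters, slide or replicate number as a block, array weights, only the arrays compared, separate variances, the mean over a gene's probes, and leaving out each of 14 arrays.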

Additional observations from a re-analysis of the deposited data

Results flagged for a closer look

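In 6 of 52 water groups of 4 arrays, 1 array lay apart from the other 3 by Dixon's test at the 95% level, where chance gives about 1 in 20. All were on levels relative to the array's 75th percentile. Hoxa3 was at -1.41 in GR iKO water replicate 4, against -1.90 to -1.83 in the others. In GR iKO water replicate 2, Hoxa4 was at -4.30 against -3.84 to -3.81, and Hoxa10 was at 0.59 against 0.67 on each of the others. Hoxa5 was at -1.39 in Flox water replicate 4 against -1.18 to -1.17. Hoxa13 was at -2.01 in Flox water replicate 2 against -1.64 to -1.61. Hoxb7 was at -1.89 in GR iKO water replicate 1 against -2.17 to -2.12.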

How the results depend on the processing

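The count of Hox genes called with DSS was 17 in Flox and 13 in GR iKO, and 15 to 19 and 11 to 16 when 1 array was left out. Scaled to spike-ins, the 18 calls in Flox were 1 higher and 17 lower and the 9 in GR iKO all lower, and on that scale the median probe also fell. The count between genotypes on water was 0 throughout. Between genotypes on DSS, the count of 5 became 13 with spike-ins (12 higher, 1 lower), 8 with normexp, 8 with array weights, 3 without a filter, 3 with the slide as a block, 3 with the mean over a gene's probes, and 0 with separate variances or only the arrays compared. It was 1 to 13 when 1 array was left out. Of all 29523 probes, 3903 were called in that comparison. They became 22640 with spike-ins, 4010 with normexp, 3495 with array weights and 1612 with the slide as a block. The interaction count of 0 became 10 with spike-ins and 5 with array weights, and was 0 to 6 when 1 array was left out. Over all 29523 probes, interaction calls went from 33 to 20607 with spike-ins and to 2065 with array weights.

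With spike-ins, each rise called in Flox other than that of Hoxc9 turned or came to 0. The log2 differences were -0.98 for Hoxa6, -0.49 for Hoxa11, -1.22 for Hoxb3, -0.45 for Hoxb7, -0.74 for Hoxd4, -0.46 for Hoxd8, -1.47 for Hoxa4, -1.91 for Hoxa5, -0.17 for Hoxb2, -0.31 for Hoxb4, 0.00 for Hoxb5 and -0.21 for Hoxb6, and Hoxa13, which was not called, was at -1.95. In GR iKO they were -0.63 for Hoxa13, -0.38 for Hoxa4, -0.14 for Hoxb3 and -0.03 for Hoxd8, and between genotypes on DSS 0.65 for Hoxa4, 0.65 for Hoxa5 and 0.22 for Hoxb5. With the mean over its probes, Hoxa13 was at -0.27 in Flox and -0.23 in GR iKO. Without GR iKO DSS replicate 4, the GR iKO difference was -0.11 for Hoxa13 and 0.81 for Hoxd13. Over all arrays left out, Hoxa13 in GR iKO ranged up to 0.79, Hoxd13 in Flox down to -0.80 and Hoxd13 in GR iKO down to -0.64. Hoxd13 was at 0.03 in GR iKO without GR iKO water replicate 2, and in Flox at 0.01 without Flox water replicate 1 and 0.19 without Flox DSS replicate 1. The cause was not tested.

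The samples were not taken as paired in the main fit. Deviations of the 18 same-numbered pairs correlated at -0.227 to 0.31 (median 0.099), with 9 over 0.1. Of 55 other pairs, 11 were over 0.1 (median -0.02), so same-numbered arrays were somewhat more alike. Most same-numbered pairs also shared a slide, so number and slide cannot be fully told apart. With the replicate block the counts were 17, 13, 0, 3 and 0, against 17, 13, 0, 5 and 0 in the main fit. Dim signal limits HoxC, Hoxd8 and Hoxd11, which were near background, and the spread of 3 DSS arrays limits every comparison between genotypes.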

Other observations

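Some clusters showed a similar order of the DSS arrays over most of their genes. Among GR iKO DSS arrays, replicate 1 was the lowest in 10 of 11 HoxA genes and replicate 4 the highest in 9 of 11, whereas replicate 4 was the lowest for Hoxb13 and for Hoxd10, Hoxd11 and Hoxd13. Hoxa9, for example, was at -0.86, 0.08 and 1.35 on replicates 1, 3 and 4, against 0.40 to 0.54 on GR iKO water arrays. Among Flox DSS arrays, replicate 4 was the lowest for each of the 6 HoxB genes from Hoxb2 to Hoxb7 and the highest for both Hoxb9 and Hoxb13. No such order was seen in HoxA of Flox, where replicate 4 was the highest in 5 and the lowest in 5 of 11 genes, or in the highest array of HoxB in GR iKO, split 2, 3 and 3. These orders were seen after the values and were not tested, and genes on 1 array share its RNA and scaling.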
